A study of Homo sapiens with 12 samples.

Results

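The transcripts of 10 genes of ADP-ribose transfer, removal and downstream repair were followed in cholangiocarcinoma cells. The cells were treated with a DNA methyltransferase inhibitor, a PARP inhibitor or both. The set was defined by symbol, from the Ensembl identifiers of the count table, and held PARP1, PARP2, PARP3, PARP4, TNKS, TNKS2, HPF1, PARG, XRCC1 and LIG3, 10 of the 60651 genes counted. All 10 passed the filter on low counts in every fit. RNA sequencing had been done on 12 libraries of 2 established human lines, 2 libraries in each of 6 groups, collected 72 h after treatment. EGI-1 cells received vehicle, 0.5 µM decitabine, 200 nM talazoparib or both agents at these doses, and HUCCT1 cells received vehicle or 1 µM decitabine. The labels do not say that the 2 libraries of a group came from separate cultures, so p-values measure the spread between these libraries, which may be technical. EGI-1 and HUCCT1 library names carry different L codes, which the labels do not explain and which may be sequencing lanes. Line and any such batch therefore cannot be told apart, and the decitabine dose differed between the lines. Talazoparib library names hold a 50, whereas the labels give 200 nM. Each line is a single tumour-derived culture. EGI-1 combination replicate 2 stood apart in leukocyte transcripts: it held 381 counts of PTPRC and 148 of CD3E, whereas combination replicate 1 held 2 and 0 and the other EGI-1 libraries held 1 to 7 and 0 to 4. Results on the combination are therefore also given without it. Library totals ran from 23139065 to 33181930 counts for EGI-1 and from 32519985 to 34965627 for HUCCT1. All 7 biliary epithelial markers examined (KRT7, KRT19, KRT8, KRT18, EPCAM, SOX9 and CDH1) were above 3 counts per library in every group.

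PARP1 binds DNA breaks and, together with its accessory factor HPF1, uses NAD+ to attach chains of ADP-ribose to itself, histones and repair proteins. PARP2 and PARP3 are the other DNA damage-dependent members of the family, the tankyrases TNKS and TNKS2 act on telomere and Wnt pathway proteins, and PARP4 is the vault particle enzyme. The chains recruit the scaffold XRCC1 and its partner DNA ligase LIG3 to single-strand breaks, and the glycohydrolase PARG cuts the chains away again. Talazoparib blocks PARP1 and PARP2 at the protein level and holds them on DNA, while decitabine is built into DNA, traps DNA methyltransferases and lowers CpG methylation as cells replicate. Neither agent is directed at the transcripts measured here, so their levels check no label.

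On GRCh38, with the GENCODE 44 annotation, the genes lie at chr1:226360210-226408154 on the minus strand (PARP1), chr14:20343615-20357904 on the plus strand (PARP2), chr3:51942345-51948867 on the plus strand (PARP3) and chr13:24420931-24512778 on the minus strand (PARP4). TNKS2 lies at chr10:91798426-91865475 on the plus strand. HPF1 lies at chr4:169729470-169757944, PARG at chr10:49818279-49970203 and XRCC1 at chr19:43543311-43580473, all on the minus strand, and LIG3 lies at chr17:34980512-35009743 on the plus strand. As decitabine acts on CpG sites, the 250 bases before the RefSeq transcription start are shown for 4 of the genes whose transcripts changed, with each CG in capitals. PARP1 rose in HUCCT1 given decitabine, PARP2 fell there, XRCC1 fell there and in the EGI-1 combination, and LIG3 fell in the EGI-1 combination. The calls of PARP2, and of XRCC1 in EGI-1, were lost without some single libraries.
PARP1, chr1:226408094-226408343, minus strand: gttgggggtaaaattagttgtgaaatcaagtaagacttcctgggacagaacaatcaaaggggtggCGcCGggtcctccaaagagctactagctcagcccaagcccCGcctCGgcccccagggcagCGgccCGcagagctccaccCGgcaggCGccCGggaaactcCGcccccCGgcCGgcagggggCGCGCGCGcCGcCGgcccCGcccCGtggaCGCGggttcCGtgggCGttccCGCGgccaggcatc
PARP2, chr14:20343385-20343634, plus strand: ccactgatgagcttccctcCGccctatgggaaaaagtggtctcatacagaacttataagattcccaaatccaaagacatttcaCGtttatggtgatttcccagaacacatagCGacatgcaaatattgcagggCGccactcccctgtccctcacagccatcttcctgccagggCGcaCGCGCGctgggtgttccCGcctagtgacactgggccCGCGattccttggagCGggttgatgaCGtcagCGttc
XRCC1, chr19:43575528-43575777, minus strand: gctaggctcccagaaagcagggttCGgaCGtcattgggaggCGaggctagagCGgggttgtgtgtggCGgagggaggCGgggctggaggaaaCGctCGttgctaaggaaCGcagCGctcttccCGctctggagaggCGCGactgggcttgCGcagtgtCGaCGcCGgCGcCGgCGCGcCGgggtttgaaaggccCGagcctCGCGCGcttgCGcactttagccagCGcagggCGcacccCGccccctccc
LIG3, chr17:34980262-34980511, plus strand: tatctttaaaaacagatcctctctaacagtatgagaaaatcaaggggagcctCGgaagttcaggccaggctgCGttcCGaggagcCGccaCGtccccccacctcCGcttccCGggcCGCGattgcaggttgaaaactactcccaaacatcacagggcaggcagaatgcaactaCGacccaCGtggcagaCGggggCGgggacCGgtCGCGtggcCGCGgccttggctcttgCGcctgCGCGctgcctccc
The sequences are from RefSeq on GRCh38.p14, written 5′ to 3′, and the table held 8 of the 10 genes, without PARP4 and TNKS. RefSeq and GENCODE starts differ for some genes. The stretches of XRCC1 and PARG lie wholly inside the gene intervals given above, and those of PARP1, PARP2 and PARP3 partly. The CG dinucleotide, which reads the same on both strands, occurred 26 times before the start of PARP1, 14 times before PARP2, 30 times before XRCC1 and 21 times before LIG3. It occurred 23 times before PARP3, 26 times before TNKS2, 26 times before PARG and 17 times before HPF1. Over all 35116 promoters of the same length the median was 11 and the middle range between quartiles ran from 3 to 23, and 93.9% held at least 1 CG. All 8 promoters were above that median. Those of PARP1, XRCC1, TNKS2 and PARG lay above the upper quartile. Methylation was not measured in these libraries.

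Levels between genes were compared as CPM (counts relative to library size, with TMM factors computed over the 12 libraries) per kilobase of the canonical transcript. Counts were per gene, and all annotated exons of PARP1 span 18399 bases against 3978 in its canonical transcript (PARP2, 4062 against 1827). The order between genes therefore depends on the length chosen. By the length of all exons PARP1 would not be first under vehicle in either line. In EGI-1 cells under vehicle PARP1 was the most abundant of the set at 66.7 ± 0.040 CPM per kb (SD, n = 2). TNKS2 followed at 23.0 ± 0.33, PARP4 at 18.9 ± 0.52 and PARP2 at 17.99 ± 0.032. PARG at 13.5 ± 0.31 and XRCC1 at 13.3 ± 0.83 overlapped, and below them came LIG3 at 10.6 ± 0.14, TNKS at 7.13 ± 0.017, PARP3 at 6.45 ± 0.054 and HPF1 at 4.67 ± 0.043. PARP1 and HPF1, which act as 1 enzyme complex on serine residues, thus stood at the 2 ends of this order in EGI-1. In HUCCT1 cells under vehicle PARP1 was again first at 56.6 ± 0.34 CPM per kb, and PARP4 was next at 40.9 ± 0.71. TNKS2 at 16.4 ± 1.8, XRCC1 at 15.2 ± 2.8 and PARP2 at 14.8 ± 0.91 followed, with XRCC1 overlapping both of its neighbours. PARG at 10.3 ± 0.96, LIG3 at 9.18 ± 0.056 and HPF1 at 6.999 ± 0.091 came below, and PARP3 at 5.21 ± 0.25 and TNKS at 4.97 ± 0.39 overlapped each other. The plot of levels per length shows where treatment changed this order.

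**Figure D1:**
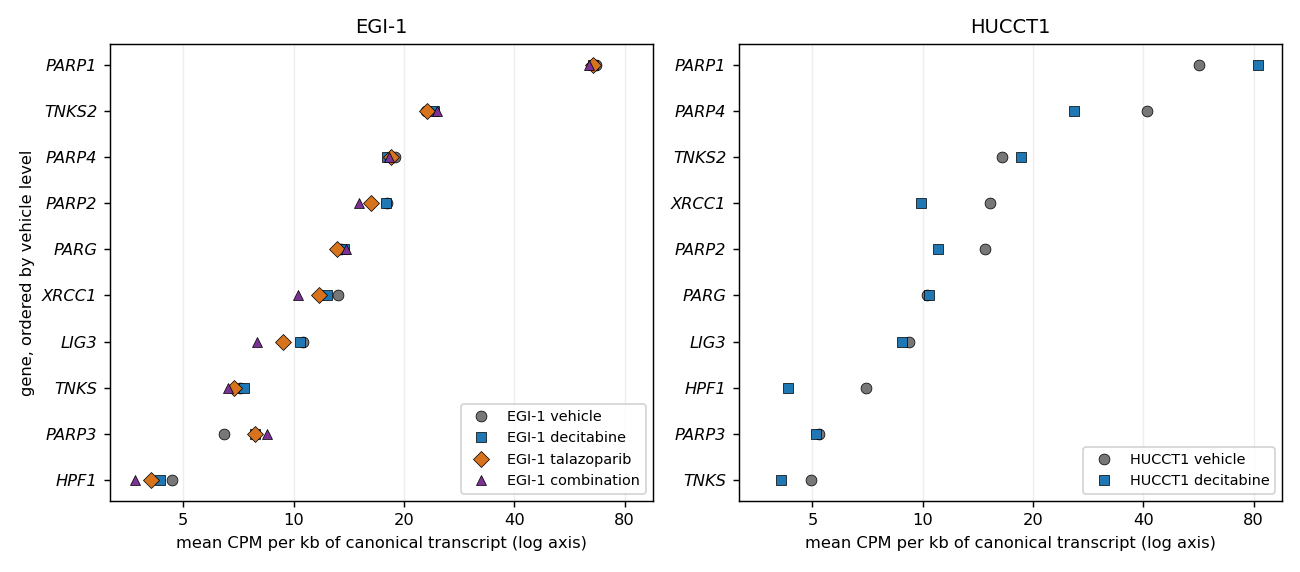
Mean transcript level of the 10 genes in CPM per kilobase of the canonical transcript (log axis), by group, in EGI-1 (left) and HUCCT1 (right), with genes ordered by their vehicle level. Each point is the mean of 2 libraries. PARP1 is highest in all 6 groups, LIG3 drops below PARP3 in the EGI-1 combination, and PARP1 moves right while PARP4, XRCC1, PARP2 and HPF1 move left in HUCCT1 given decitabine.

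The untreated lines differed in most of the set. Under vehicle, 2 of the 10 genes were higher and 7 were lower in HUCCT1 than in EGI-1, where 55.8% of all 25096 genes tested were called. A gene was called at a Benjamini-Hochberg adjusted p under 0.05 in edgeR's quasi-likelihood test, here and throughout. PARP4 was 2.16-fold higher in HUCCT1 (log2 difference 1.11, SE 0.08, adjusted p = 2.36e-10) and HPF1 was 1.498-fold higher (0.58, SE 0.17, adjusted p = 0.00529). The tankyrases were lower there, TNKS by 0.52 and TNKS2 by 0.48 on the log2 scale, and PARG, PARP3, PARP2, PARP1 and LIG3 were lower by 0.39, 0.31, 0.28, 0.24 and 0.20. XRCC1 was not called (0.20 higher, adjusted p = 0.143), but was without HUCCT1 vehicle replicate 1 (0.38, adjusted p = 0.00936). The differences in PARP2, PARP3 and LIG3 were not called by DESeq2 or without EGI-1 vehicle replicate 1 or 2. Those of PARP3 and LIG3 were also lost with no filter on low counts. That of PARP2 was lost without HUCCT1 vehicle replicate 2, that of PARP3 without HUCCT1 vehicle replicate 1, and that of LIG3 without either HUCCT1 vehicle library or EGI-1 combination replicate 1. With 1 library left out they ranged from -0.34 to -0.22 for PARP2, -0.36 to -0.25 for PARP3 and -0.24 to -0.19 for LIG3.

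PARP1, the main target of talazoparib, hardly varied across the EGI-1 arms and rose in HUCCT1 cells given decitabine. In EGI-1 its CPM was 265.2 and 265.4 under vehicle, 269.2 and 253.1 under decitabine, 262.5 and 261.2 under talazoparib, and 256.0 and 252.9 under the combination. In HUCCT1 it was 224.3 and 226.2 under vehicle and 332.8 and 320.1 under decitabine. Both treated HUCCT1 libraries were thus above all other 10 libraries of the series. The log2 fold change in HUCCT1 was 0.53 (SE 0.10, 95% confidence interval 0.31 to 0.74, adjusted p = 0.000305), a 1.44-fold rise. In EGI-1 it was -0.02 (-0.13 to 0.10) under decitabine, -0.02 (-0.13 to 0.10) under talazoparib and -0.07 (-0.18 to 0.05) under the combination. The decitabine effects of the lines differed by 0.56 (HUCCT1 minus EGI-1, SE 0.10, adjusted p = 0.000282).

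HPF1, the factor that directs PARP1 and PARP2 to serine, moved the other way in HUCCT1. Its CPM there was 8.43 and 8.59 under vehicle and 5.46 and 4.93 under decitabine, and the groups did not overlap. The log2 fold change was -0.72 (SE 0.17, adjusted p = 0.00209), a 1.65-fold fall, the largest in the set. In EGI-1 its CPM was 5.64 and 5.72 under vehicle, 5.98 and 4.53 under decitabine, 5.30 and 4.64 under talazoparib, and 3.92 and 5.03 under the combination. HPF1 had the lowest counts of the set, between 96 and 260 per library, and its EGI-1 combination interval was wide (-0.72 to 0.03, adjusted p = 0.203). The decitabine effects differed by -0.60 between the lines, which did not pass the test (adjusted p = 0.1) but did without EGI-1 decitabine replicate 2 (-0.79, adjusted p = 0.0383).

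PARP2, which shares the DNA damage response with PARP1, fell in HUCCT1. Its CPM was 28.3 and 25.9 under vehicle and 19.5 and 20.6 under decitabine, with no overlap. The log2 fold change was -0.44 (SE 0.13, adjusted p = 0.00778). The call was lost without HUCCT1 vehicle replicate 1 (-0.39, adjusted p = 0.0646) or decitabine replicate 1 (-0.41, adjusted p = 0.0557). In EGI-1 the CPM of PARP2 was 32.9 and 32.8 under vehicle, 33.6 and 31.7 under decitabine, 28.4 and 31.0 under talazoparib, and 25.6 and 29.4 under the combination. Both combination libraries lay below both vehicle libraries, but the difference did not pass the test (log2 -0.26, interval -0.45 to -0.07, adjusted p = 0.0512). It was called lower in 6 of 15 alternatives, among them those without EGI-1 combination replicate 2 (-0.36, adjusted p = 0.0401) and without EGI-1 decitabine replicate 1 or 2 (-0.26 in both), with upper-quartile factors (-0.30) and with no filter on low counts (-0.26).

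As a ratio within each library, which needs no scaling, PARP1 per kilobase was 3.702 and 3.714 times PARP2 in the EGI-1 vehicle libraries, 3.68 and 3.67 times under decitabine, 4.24 and 3.87 times under talazoparib, and 4.58 and 3.95 times under the combination. In HUCCT1 the ratio was 3.65 and 4.01 under vehicle and 7.82 and 7.12 under decitabine. The 2 lines had nearly the same ratio without treatment, and the decitabine libraries of HUCCT1 stood apart from the other 10. The size of the ratio depends on the transcript lengths used, whereas its relative change between groups does not. No test was run on the ratio.

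PARP3, which acts at double-strand breaks, was the 1 gene of the set called higher in the EGI-1 combination. Its CPM was 15.0 and 15.2 under vehicle, 18.5 and 18.1 under decitabine, 17.4 and 19.3 under talazoparib, and 19.0 and 20.5 under the combination. All 6 treated EGI-1 libraries were above both vehicle libraries. The log2 fold change under the combination was 0.38 (SE 0.10, adjusted p = 0.0113), and those under decitabine and talazoparib were 0.29 and 0.29 (adjusted p = 0.304 and 0.128). The 3 comparisons share the 2 vehicle libraries. The combination call was lost without EGI-1 vehicle replicate 1 (0.38, adjusted p = 0.101), vehicle replicate 2 (0.39, adjusted p = 0.0858) or combination replicate 2 (0.33, adjusted p = 0.108). In HUCCT1 PARP3 was at 11.8 and 12.6 CPM under vehicle and 11.1 and 12.9 under decitabine, and the groups overlapped (log2 -0.03, interval -0.34 to 0.27).

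PARP4, the gene of the set that differed most between the untreated lines, fell in HUCCT1. Its CPM was 225.3 and 219.8 under vehicle and 149.0 and 131.8 under decitabine. The log2 fold change was -0.67 (SE 0.11, adjusted p = 2.33e-05), a 1.60-fold fall, and both treated libraries were still above the 93.3 to 107.7 CPM of the 8 EGI-1 libraries. In EGI-1 PARP4 had log2 fold changes of -0.07, -0.03 and -0.07 under decitabine, talazoparib and the combination, none of them called. The decitabine effects of the lines differed by -0.59 (SE 0.12, adjusted p = 0.00128). The pseudogenes PARP4P1, PARP4P2 and PARP4P3 held at most 3 counts in any library, and PARP1P1 and PARP1P2 at most 9.

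TNKS (chr8:9555912-9782346, plus strand), TNKS2 and PARG did not pass the test in any treatment comparison of the main tests, which used no replicate block. TNKS in HUCCT1 was at 50.5 and 45.1 CPM under vehicle and 41.9 and 37.1 under decitabine (log2 -0.28, interval -0.53 to -0.04, adjusted p = 0.0709). TNKS2 was at 110.4 and 94.7 under vehicle and 120.7 and 111.3 under decitabine (0.17, interval -0.07 to 0.40, adjusted p = 0.278). The 2 tankyrases thus had estimates of opposite sign, neither of them called. With the replicate number as a block in edgeR, TNKS was called lower in HUCCT1 (-0.28, adjusted p = 0.00101) and TNKS2 higher (0.17, adjusted p = 0.0182). TNKS was called lower without HUCCT1 vehicle replicate 2 (-0.38, adjusted p = 0.03997). In EGI-1 TNKS ranged from 60.03 to 71.2 CPM over the 8 libraries and TNKS2 had group means of 143.4, 150.3, 144.1 and 153.9 CPM under vehicle, decitabine, talazoparib and the combination (SD 2.05, 2.53, 5.56 and 11.5, n = 2 each). PARG, the main enzyme that removes the chains, was at 47.1 and 41.3 CPM in HUCCT1 under vehicle and 45.2 and 43.97 under decitabine, with overlapping groups and a log2 fold change of 0.00 (-0.24 to 0.24). It lay between 55.4 and 60.7 CPM in EGI-1. PARGP1, a partial copy of PARG, held 312 to 569 counts per library, and how reads common to both were assigned is not stated.

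**Figure D2:**
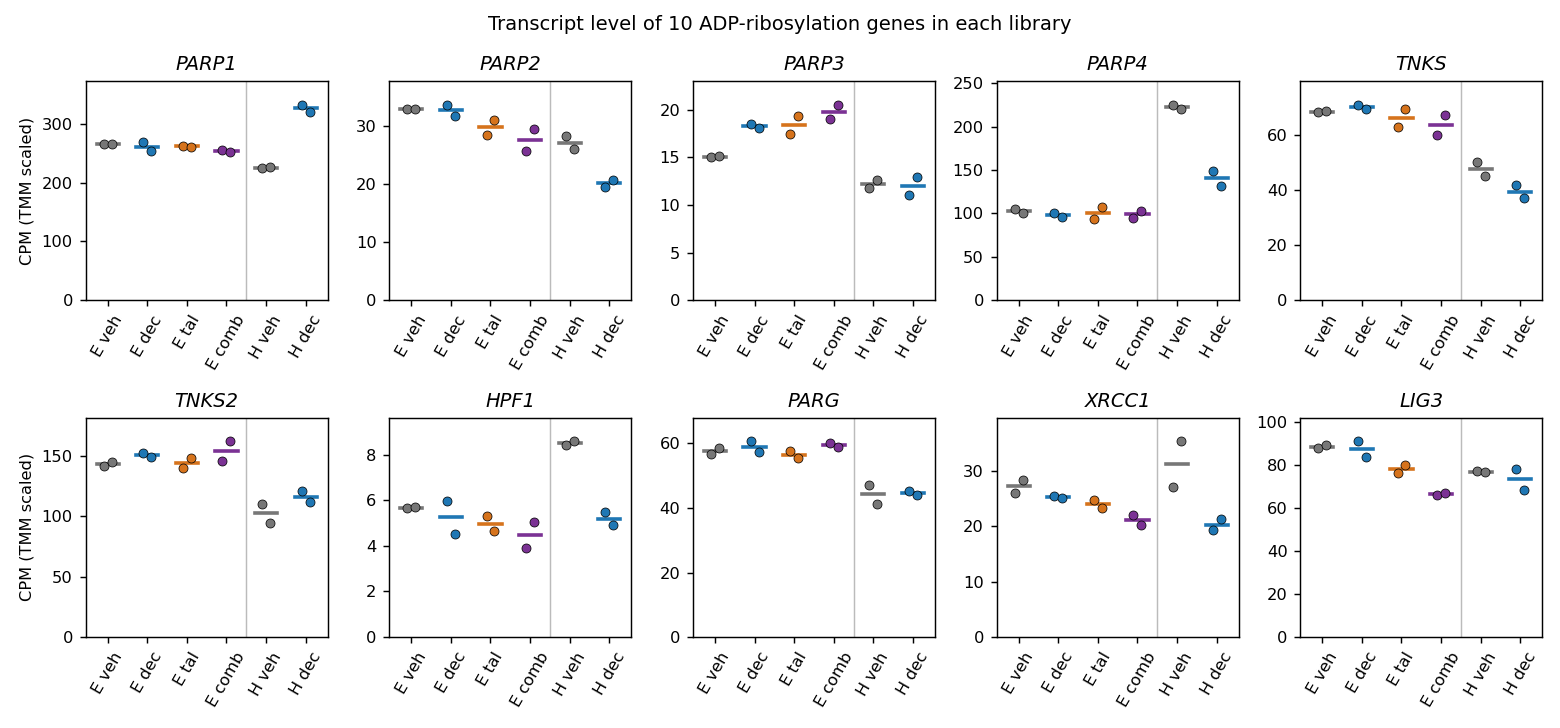
Transcript level of each of the 10 genes in CPM (TMM scaled over the 12 libraries, axes from 0), with 1 point per library and a bar at the mean of 2. E and H stand for EGI-1 and HUCCT1, and veh, dec, tal and comb for vehicle, decitabine, talazoparib and combination. PARP1 is flat near 260 in EGI-1 and rises above 320 in HUCCT1 given decitabine, and for LIG3 in EGI-1 the talazoparib points lie between those of vehicle and of the combination.

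The ligase LIG3 and the scaffold XRCC1, downstream of the chains, were called lower in the EGI-1 combination. The call of LIG3 held without EGI-1 combination replicate 2, and that of XRCC1 did not. LIG3 was at 87.8 and 89.5 CPM under vehicle, 91.2 and 83.7 under decitabine, 76.2 and 80.2 under talazoparib, and 66.3 and 67.1 under the combination. Both combination libraries were below all other EGI-1 libraries, and both talazoparib libraries lay between them and the vehicle libraries. The log2 fold change of the combination was -0.42 against vehicle (SE 0.07, adjusted p = 0.000265) and -0.41 against decitabine (SE 0.07, adjusted p = 0.00089). Against talazoparib it was -0.24 (SE 0.07, adjusted p = 0.0859), and talazoparib against vehicle gave -0.18 (SE 0.07, adjusted p = 0.174), neither of which was called. Without EGI-1 combination replicate 2 the values against vehicle and decitabine were -0.42 (adjusted p = 0.00412) and -0.41 (adjusted p = 0.0123), and without EGI-1 decitabine replicate 1 or 2 the difference from talazoparib was called (-0.24 in both). In HUCCT1 LIG3 was at 77.3 and 76.6 CPM under vehicle and 78.1 and 68.7 under decitabine, where the groups overlapped (-0.08, interval -0.31 to 0.15).

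LIG3 shares 3754 exonic bases with RFFL on the opposite strand, and as the sources do not state whether counting used strand, their reads there may not have been told apart. RFFL, which encodes a ubiquitin ligase, also fell in the EGI-1 combination, by 0.34 on the log2 scale against vehicle (adjusted p = 0.00324) and by 0.35 against decitabine (adjusted p = 0.0058). Without EGI-1 combination replicate 2 RFFL was at -0.33 (adjusted p = 0.0307) and -0.34 (adjusted p = 0.0544). It held 890 to 1483 counts per library against 1623 to 2802 for LIG3. RFFL was chosen for its position next to LIG3.

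XRCC1 was at 26.0 and 28.4 CPM in EGI-1 under vehicle, 25.4 and 25.1 under decitabine, 24.8 and 23.4 under talazoparib, and 22.1 and 20.1 under the combination. All 6 treated libraries were below both vehicle libraries, and the 2 combination libraries were lowest. The combination against vehicle gave a log2 fold change of -0.38 (SE 0.09, adjusted p = 0.00788). That call was lost without EGI-1 vehicle replicate 2 (-0.31, adjusted p = 0.135) or combination replicate 2 (-0.31, adjusted p = 0.104). In HUCCT1 XRCC1 was at 27.1 and 35.3 CPM under vehicle and 19.3 and 21.3 under decitabine. The groups did not overlap, though the vehicle libraries stood apart from each other, and the log2 fold change was -0.63 (SE 0.13, adjusted p = 0.000577). It was -0.82 without HUCCT1 vehicle replicate 1 and -0.45 without vehicle replicate 2, and was called in both cases. XRCC1 shares exonic bases with 3 short loci that held at most 14 counts in any library. XRCC1 per kilobase was 1.21 and 1.296 times LIG3 in the EGI-1 vehicle libraries and 1.36 and 1.23 times in the combination libraries, which overlapped. In HUCCT1 the ratio was 1.43 and 1.88 under vehicle and 1.01 and 1.27 under decitabine, which did not.

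Counts of called genes were read against the share of all genes called. None of the 10 genes was called by edgeR under decitabine, where 0.544% of 22406 genes were, and none under talazoparib, where 4.12% were. At an unadjusted p under 0.05 there was 1 such gene under decitabine (PARP3), beside 9.14% of all genes, and there were 2 under talazoparib (PARP3 and LIG3), beside 15.9%, and DESeq2 called 0 in both. Under the combination 3 of 10 were called against vehicle (PARP3 higher, LIG3 and XRCC1 lower), beside 18.7% of all genes. Without EGI-1 combination replicate 2 there were 2 (LIG3 and PARP2, both lower), beside 10.7%. Against decitabine 1 was called (LIG3), beside 7.68%. Against talazoparib 0 were called by edgeR, beside 1.92% of all genes, with 2 at an unadjusted p under 0.05 (LIG3 and XRCC1, beside 13.3% of all genes) and 0 by DESeq2. In edgeR 0 genes of the set departed under the combination from the added log2 changes of the single agents, beside 0.161% of all genes, and DESeq2 called 0. LIG3 had the 1 unadjusted p under 0.05 in that test (log2 departure -0.23, unadjusted p = 0.0272), as did 3.38% of all genes. In HUCCT1 given decitabine 5 of 10 were called (PARP1 higher, HPF1, PARP4, XRCC1 and PARP2 lower), beside 33.5% of 22479 genes. The median log2 fold change of the set there was -0.18, beside 0.00 for all genes tested, and in the EGI-1 combination it was -0.09 beside -0.02.

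The difference in decitabine effect between the lines was called for 4 of 10 (PARP1, PARP4, XRCC1 and PARP2), beside 15.9% of 25096 genes, with different doses in the 2 lines. PARP1 and PARP4 kept that call in all 17 alternatives tried. For XRCC1 the difference was -0.52 (SE 0.16, adjusted p = 0.0331), and it fell to -0.32 (adjusted p = 0.190) without HUCCT1 vehicle replicate 2. It was also not called without EGI-1 vehicle replicate 1 (-0.47) or 2 (-0.59), EGI-1 decitabine replicate 1 (-0.52) or 2 (-0.54), or HUCCT1 decitabine replicate 1 (-0.45). For PARP2 the difference was -0.42 (SE 0.14, adjusted p = 0.0436), and 10 of 17 alternatives lost the call, with values between -0.49 and -0.37 over all of them.

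**Figure D3:**
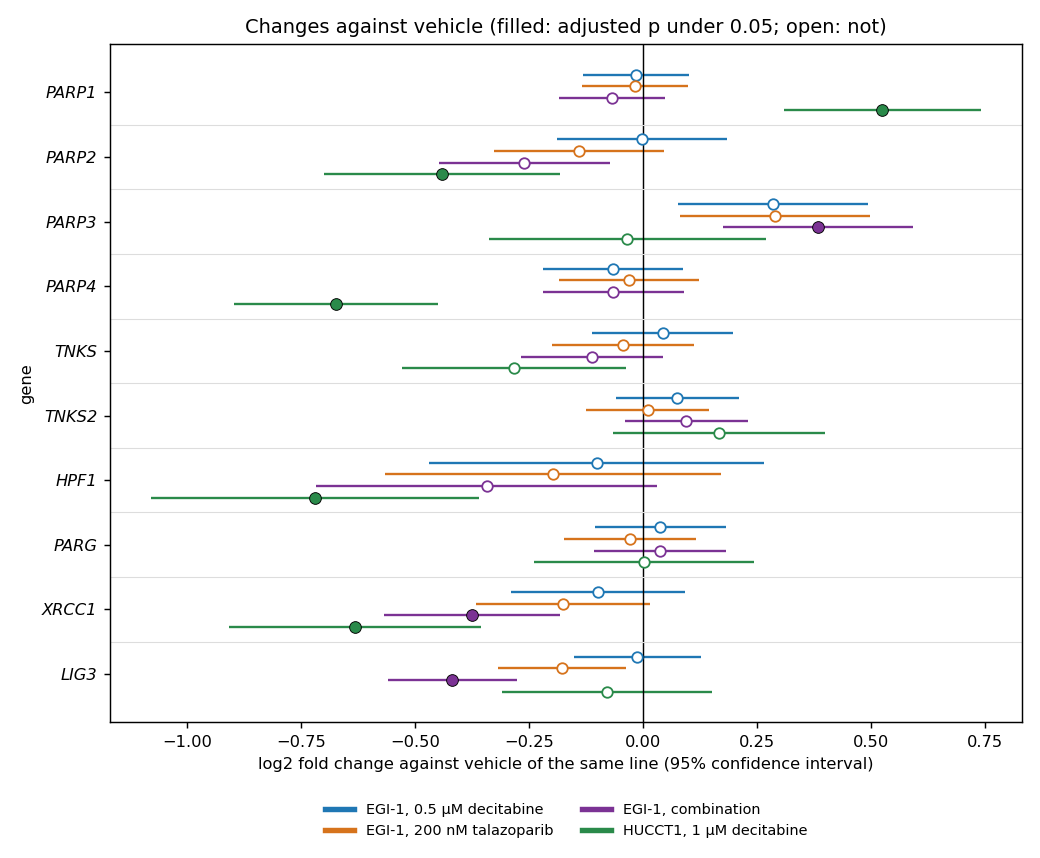
Log2 fold change against vehicle of the same line for the 10 genes, with 95% confidence intervals from edgeR. Filled points passed an adjusted p under 0.05 and open points did not, and the 3 EGI-1 arms share their 2 vehicle libraries. Filled points are PARP3, XRCC1 and LIG3 for the EGI-1 combination, and PARP1, PARP2, PARP4, HPF1 and XRCC1 for HUCCT1 given decitabine.

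As these are bulk libraries, fewer cells of a type and less RNA per cell cannot be told apart. Markers of cell identity moved with the same treatments. The summed level of the 7 biliary markers was 14760 to 16570 CPM in HUCCT1 under vehicle and 9371 to 10730 under decitabine, with KRT7, KRT8, KRT18 and KRT19 lower and CDH1 higher. In EGI-1 it was 8312 to 8339 under vehicle and 9170 to 9271 under the combination. Of 9 markers of hepatocytes, leukocytes, endothelium and fibroblasts, 6 were above 3 counts in at least 1 HUCCT1 vehicle library. In the HUCCT1 decitabine libraries 7 were, by the same limit. The summed level of the 9 was 41.0 to 42.2 CPM under vehicle and 181.3 to 212.9 CPM under decitabine. In EGI-1 3 of 9 were above that limit under vehicle, with a summed level of 34.7 to 36.1 CPM, and 5 under the combination, with 60.3 to 70.2 CPM. The 2 added markers were PTPRC and CD3E, at 12.53 and 4.869 CPM in combination replicate 2 and at 0.0817 and 0 in replicate 1. CD3E was also at 17 and 23 counts in HUCCT1 under decitabine, against 0 and 1 under vehicle. The fibroblast collagen COL1A1 was called higher in the EGI-1 combination (log2 0.64, adjusted p = 0.000326) and in HUCCT1 under decitabine (2.62, adjusted p = 5.81e-15), as was the endothelial marker VWF (1.64, adjusted p = 1.71e-05, and 1.83, adjusted p = 1.09e-08). COL1A1 and VWF were at 0.75 and 1.82 in the combination without EGI-1 combination replicate 2. PECAM1 rose in HUCCT1 by 2.41 (adjusted p = 2.37e-07) and LUM fell there by 1.05 (adjusted p = 0.00015). The fibroblast marker DCN was at 0 in every EGI-1 group and in HUCCT1 under vehicle, and at 12 and 7 counts in HUCCT1 under decitabine. By the limit of 3 counts, CD3E and DCN were thus added in HUCCT1 under decitabine. PTPRC was lost there, at 3 and 4 counts under vehicle and 3 and 3 under decitabine. The hepatocyte marker ALB was at 3 counts or fewer in every library of all groups. The part of these shifts in the results above was not tested.

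The other genes of the pathway were examined as 4 lists. Of 11 further ADP-ribosyltransferases 10 could be tested. In the EGI-1 combination 2 were higher and 1 was lower, beside 18.7% of all genes called in either direction, with a list median of 0.02 on the log2 scale. PARP10 rose by 0.41 (adjusted p = 0.00237), PARP12, an interferon-induced enzyme, rose by 0.33 (adjusted p = 0.00286), and PARP6 fell by 0.31 (adjusted p = 0.0423). PARP10 and PARP12 were at 0.47 and 0.29 without EGI-1 combination replicate 2. PARP6 lost its call without EGI-1 combination replicate 2 (-0.38, adjusted p = 0.0724). In HUCCT1 given decitabine 1 was higher and 2 were lower, beside 33.5% of all genes, with a list median of -0.08. PARP12 rose from 81.4 and 92.6 CPM to a range of 143.3 to 153.9 (log2 0.76, adjusted p = 4.76e-06). PARP9, which works with the ubiquitin ligase DTX3L, fell by 0.59 (adjusted p = 0.000427) and PARP8 fell by 0.36 (adjusted p = 0.0145).

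Of 14 genes that remove or read ADP-ribose, all were tested, and 1 rose and 1 fell in the EGI-1 combination, beside 18.7% of all genes called. ADPRHL1, a catalytically inactive relative of the ADP-ribosyl hydrolases, went from 4.99 to 5.32 CPM under vehicle to 10.6 to 10.7 under the combination (log2 1.03, SE 0.13, adjusted p = 3.03e-05). It was also higher in the combination than in either single arm, by 0.74 against decitabine (adjusted p = 0.00158) and by 0.74 against talazoparib (adjusted p = 0.00493). Without EGI-1 combination replicate 2 ADPRHL1 was at 1.04 against vehicle, 0.75 against decitabine and 0.76 against talazoparib, with 1 combination library left. OARD1, which removes ADP-ribose from glutamate, fell by 0.34 (adjusted p = 0.0243), a call that was lost without EGI-1 combination replicate 2 (-0.30, adjusted p = 0.150). In HUCCT1 given decitabine 2 rose and 1 fell, beside 33.5%. ADPRH, which removes ADP-ribose from arginine, went from a mean of 2.33 CPM under vehicle to 9.24 under decitabine (log2 1.98, SE 0.20, adjusted p = 1.34e-08). ADPRHL1 rose by 1.15 (adjusted p = 4.87e-07) and the mitochondrial macrodomain hydrolase MACROD1 fell by 0.69 (adjusted p = 0.00066). The list medians were 0.04 in the EGI-1 combination and -0.19 in HUCCT1.

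Of 18 genes of NAD+ supply and use, 16 were tested in EGI-1, and 4 rose and none fell in the combination, beside 18.7% of all genes called (list median 0.09). All 4 kept their call without EGI-1 combination replicate 2. QPRT, which makes NAD+ from the tryptophan pathway, rose from 26.7 and 27.2 CPM to a range of 48.6 to 49.5 (log2 0.86, SE 0.08, adjusted p = 7.51e-07). It was at 38.3 and 39.9 CPM under talazoparib, where it was also called higher (0.54, adjusted p = 0.000615). The deacetylase SIRT2 rose by 0.65 in the combination (adjusted p = 3.15e-05) and by 0.40 under talazoparib (adjusted p = 0.00967). The nicotinamide methyltransferase NNMT rose by 0.78 (adjusted p = 0.0119) and NMNAT2, a late enzyme of NAD+ synthesis, by 0.41 (adjusted p = 0.0284). In HUCCT1 17 of the 18 were tested, and 3 rose and 1 fell under decitabine, beside 33.5% (list median 0.22). QPRT was at 0 counts in both HUCCT1 vehicle libraries and at 2.296 and 2.62 CPM under decitabine, at least 24.8-fold higher against a floor of 3 counts per library. BST1, an NAD+ glycohydrolase at the cell surface, was at least 8.56-fold higher against the same floor. NAMPT, the rate-limiting enzyme of NAD+ salvage, rose by 0.76 (adjusted p = 1.18e-05) and NADSYN1 fell by 0.63 (adjusted p = 6.41e-05).

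Of 21 base excision and single-strand break repair genes, all were tested, and 1 rose and 5 fell in the EGI-1 combination, beside 18.7% of all genes called (list median 0.03). The replication clamp PCNA went from 235.9 and 242.4 CPM under vehicle to a range of 154.4 to 159.9 (log2 -0.61, SE 0.06, adjusted p = 5.9e-07) and was also lower under talazoparib (-0.36, adjusted p = 0.000855). The uracil glycosylase UNG fell by 0.47 (adjusted p = 0.000118), the glycosylase NTHL1 by 0.48 (adjusted p = 0.019), the abasic site nuclease APEX1 by 0.28 (adjusted p = 0.00689) and the replicative ligase LIG1 by 0.29 (adjusted p = 0.00871). PCNA, UNG and LIG1 were at -0.64, -0.48 and -0.31 against vehicle without EGI-1 combination replicate 2. Without EGI-1 combination replicate 2 the calls of NTHL1 (-0.43, adjusted p = 0.131), APEX1 (-0.22, adjusted p = 0.0946) and MPG, the 1 that had risen (0.34, adjusted p = 0.0605), were lost. In HUCCT1 given decitabine 2 rose and 5 fell, beside 33.5% (list median 0.02). LIG1 fell by 0.80 (adjusted p = 4.37e-06), PCNA by 0.68 (adjusted p = 1.94e-05), the glycosylase NEIL3 by 0.59 (adjusted p = 0.00107) and TDP1, which frees trapped topoisomerase, by 0.46 (adjusted p = 0.00175). POLB, the gap-filling polymerase of base excision repair, rose by 0.73 (adjusted p = 0.000224). No gene of the 4 lists was called by edgeR under decitabine alone in EGI-1, where 7 of the 61 tested had an unadjusted p under 0.05, beside 9.14% of all genes.

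**Figure D4:**
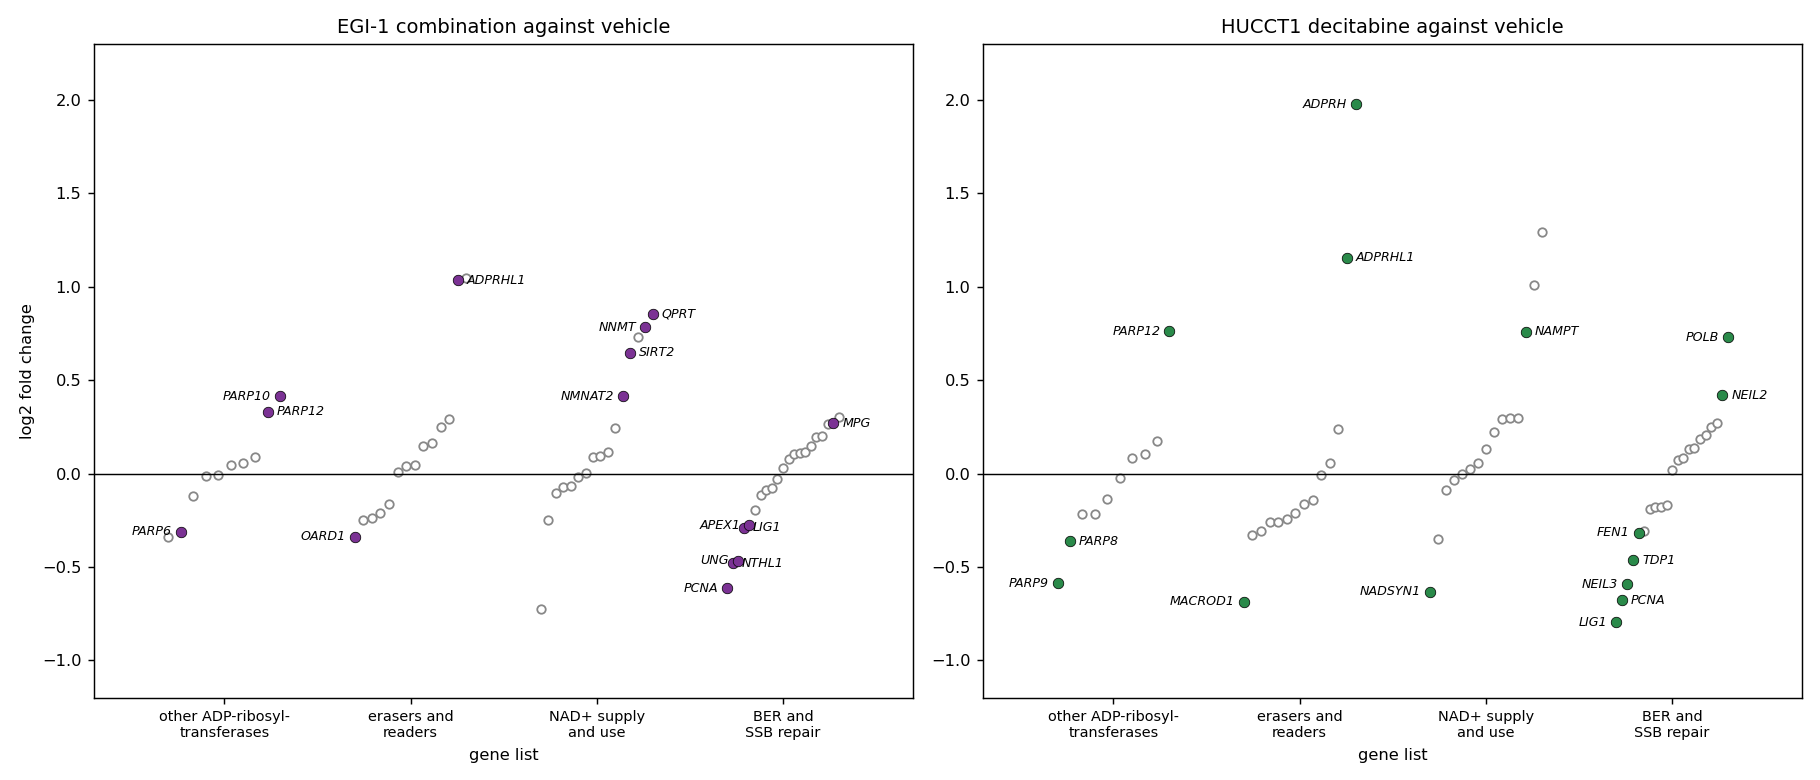
Log2 fold change of the genes of the 4 further lists in the EGI-1 combination (left) and in HUCCT1 given decitabine (right), each against vehicle of its line. Filled, named points passed an adjusted p under 0.05 and open points did not, points are spread sideways by rank, and QPRT and BST1 are left out on the right because their HUCCT1 vehicle libraries held 3 counts or fewer. PCNA and LIG1 are among the filled points below 0 in both panels, and ADPRHL1 and PARP12 among those above 0.

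The genes whose pattern was most like that of PARP1 and PARP2 were found by the Pearson correlation of log2 CPM, centred within each line, over the 12 libraries and 13384 genes of sufficient level. These are descriptions over libraries that share line, treatment and scaling. For PARP1 they were PPP2R2C (r = 0.992), RCAN1 (r = 0.991) and DNAH11 (r = 0.990), and within the 8 EGI-1 libraries r was 0.77, 0.65 and 0.67. PPP2R2C had mean levels of only 0.033 CPM in HUCCT1 under vehicle and 0.616 under decitabine, against 24.3 to 31.5 in the EGI-1 groups, so its likeness there rests on very few counts. RCAN1 stood at mean levels of 33.6 CPM in HUCCT1 under vehicle and 128.4 under decitabine, and between 38.1 and 40.3 in the EGI-1 groups. For PARP2 they were TMPO (r = 0.989), PLCH1 (r = 0.977) and SMC5 (r = 0.973), with r of 0.98, 0.95 and 0.95 within EGI-1. TMPO went from 151.3 CPM under vehicle to 117.5 under the combination in EGI-1 and from 144.1 to 95.3 under decitabine in HUCCT1.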

How the data were processed

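Total RNA of 12 libraries of EGI-1 and HUCCT1 cells had been sequenced. The authors deposited 1 table of raw counts per gene with Ensembl identifiers and no normalization. The submitters' processing notes name fastp, Trim Galore, HISAT2 and featureCounts, whereas the study's methods, which describe EGI-1, name fastp, STAR and RSEM, and both name GRCh38. The methods name a stranded kit with removal of ribosomal RNA for EGI-1. The annotation, whether counting used strand and the treatment of shared reads are not given in the sources used here. The labels and the methods also differ on how RNA was isolated.

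Symbols and positions were taken from GENCODE 44. Counts were tested in R 4.3.3 with edgeR 4.0.16 (filterByExpr by group, TMM, quasi-likelihood fit with robust priors), adjusted by Benjamini-Hochberg over all genes tested, and called at an adjusted p under 0.05. The 8 EGI-1 libraries were fitted together (22406 genes), the 4 HUCCT1 libraries apart (22479 genes), and all 12 for contrasts between lines (25096 genes). Standard errors were taken from the fold change and its F statistic. Printed CPM use the TMM factors of the 12 libraries, so both lines are on 1 scale. Total counts lay between 23139065 and 34965627 per library. A gene at 3 counts or fewer in every library of a group counted as not above the floor, and folds against such a group are lower bounds for counting error. Alternatives were DESeq2 1.42.0, other scaling factors, no filter on low counts and fits on the libraries of both arms. Others used replicate or EGI-1 library series blocks, or left out each library in turn.

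The 10 genes and the further lists were chosen with earlier results of these data known. Of each further list, up to 5 called genes with the smallest adjusted p were named in the EGI-1 combination and in HUCCT1 given decitabine, and the 3 genes most like PARP1 and PARP2. RFFL, the marker genes that changed and the pseudogenes were named outside that rule.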

Additional observations from a re-analysis of the deposited data

Results flagged for a closer look

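For 15 of the genes named above, the decitabine effect differed between HUCCT1 and EGI-1 by edgeR's test of the difference over 12 libraries. Of all 25096 genes tested, 15.9% were called in this test. Those outside the set of 10 had been named for a small adjusted p in HUCCT1 given decitabine. The same HUCCT1 libraries enter this test, so it is no separate support for them. The values are HUCCT1 minus EGI-1 on the log2 scale, with 1 µM decitabine in HUCCT1 and 0.5 µM in EGI-1. The library names of the lines also carry different L codes, so dose, any batch they mark and line cannot be told apart. In the set of 10 the differences were 0.558 for PARP1 (adjusted p = 0.000282), -0.422 for PARP2 (0.0436), -0.591 for PARP4 (0.00128) and -0.519 for XRCC1 (0.0331).

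Among the other transferases and hydrolases, the difference was 0.622 for PARP12 (adjusted p = 0.000707), -0.708 for PARP9 (0.000877), 0.881 for ADPRHL1 (0.00285) and -0.653 for MACROD1 (0.0201). Of the NAD+ genes, NAMPT differed by 0.733 (adjusted p = 0.00568) and NADSYN1 by -0.487 (0.0031). Of the repair genes, the difference was -0.612 for PCNA (adjusted p = 0.000268), -0.677 for LIG1 (0.000374), 0.675 for POLB (0.00699), -0.655 for NEIL3 (0.00293) and -0.384 for TDP1 (0.0263). QPRT and BST1 were left out because their HUCCT1 vehicle libraries were at 3 counts or fewer. With 2 libraries in a group, single libraries could not be tested as outliers.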

How the results depend on the processing

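Of 132 recomputed counts of called genes of the set, 124 stayed within 1.5 times the reported count. Talazoparib against vehicle gave 1 call (LIG3 lower) when fitted on the libraries of both arms alone. Leaving out 1 library at a time gave 1 to 4 calls for the combination against vehicle (1, LIG3, without EGI-1 vehicle replicate 2), 0 to 1 for the combination against talazoparib (1, LIG3, without EGI-1 decitabine replicate 1 or 2) and 2 to 4 for the difference between lines (2, PARP1 and PARP4, without EGI-1 vehicle replicate 1 or 2, EGI-1 decitabine replicate 1 or HUCCT1 decitabine replicate 1). Of 326 recomputed fold changes of called genes, 287 kept their call, 39 lost it and 0 changed sign. LIG3 kept its call against vehicle and against decitabine in all 15 alternatives of each, and PARP1, HPF1, PARP4 and XRCC1 in HUCCT1 in all 9. Upper-quartile factors moved the median of all genes between the untreated lines to -0.13 on the log2 scale. DESeq2 called 6 instead of 9 genes between the untreated lines. Over all alternatives the share of all genes called ran from 0.0923% to 1.76% for decitabine in EGI-1, 1.01% to 8.7% for talazoparib, 7.76% to 27.1% for the combination against vehicle, 3.63% to 10.6% against decitabine, 0.469% to 4.26% against talazoparib, 0.109% to 0.359% for the departure from the sum, 14% to 45.1% in HUCCT1, 7.66% to 18.2% for the difference between lines and 26.7% to 57.3% between the untreated lines.

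Deviations of same-numbered EGI-1 libraries correlated at -0.28 to 0.24 between groups, with both signs. In HUCCT1 the 1 pair of groups gave 0.25, and whether its numbers mark pairs was not settled. The labels do not state pairing, so the main tests used none. With the replicate number as a block, 3 genes were called in the EGI-1 combination and 7 in HUCCT1 given decitabine. TNKS and TNKS2 were added in HUCCT1, and the block changed no count of the set elsewhere. Over all genes the block gave 5488 higher and 4648 lower in HUCCT1, against 4404 and 3121 without it. EGI-1 library names also form a lettered and a numbered series, each with 1 library of every arm. Vehicle replicate 1 is lettered, whereas replicate 1 of the other arms is numbered. The sources do not say whether the series marks a batch. With the series as a block PARP3, LIG3 and XRCC1 kept their calls in the combination against vehicle. Depth limits HPF1 most, at 96 to 260 counts per library.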
